A study of Mus musculus with 12 samples.

Results

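Transcripts of 9 chemokines and inflammatory cytokines, Ccl2, Ccl7, Ccl8, Ccl11, Cxcl1, Cxcl12, Il6, Il1b and Cx3cl1, were followed in the mouse aorta during and after treatment with minoxidil. The members were picked by gene symbol, and each symbol matched 1 of the 50600 annotated genes. All 9 were among the 24660 genes with enough reads to be tested. RNA was sequenced from aortic tissue, taken from the left subclavian branch down to the diaphragm in 12 C57BL/6J mice. Every mouse, controls included, carried the Eln+/- genotype, with a single working copy of the elastin gene, so no group had a normal elastin dose. Off-drug mice (n = 4) drank water with minoxidil from 2.5 to 3 months of age and then drug-free water for 1 week. On-drug mice (n = 4) were collected at the end of the same 2 weeks of minoxidil, a vasodilator that opens potassium channels of smooth muscle. Control mice (n = 4) drank regular water. All samples were labelled 3 months old, although by their schedule the off-drug mice were collected 1 week later.

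Chemokines are small secreted proteins that guide leukocytes through G-protein-coupled receptors, while IL-1 and IL-6 are cytokines that start and spread inflammatory signalling. Ccl2 and Ccl7 draw monocytes, largely through Ccr2, mouse Ccl8 acts mainly through Ccr8, and Ccl11 draws eosinophils through Ccr3. Cxcl1 draws neutrophils through Cxcr2, Cxcl12 acts through Cxcr4, and Cx3cl1 is a membrane-bound chemokine of endothelium and smooth muscle read by Cx3cr1. In an artery they can be made by endothelial cells, smooth muscle cells, fibroblasts and macrophages.

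After 1 week without drug, Ccl2, Ccl7 and Il1b were lower than in control aortas, by 6.93-fold, 7.47-fold and 5.59-fold, and Cxcl12 was higher by 1.27-fold. In edgeR's quasi-likelihood test these 4 of 9 members passed the threshold, an adjusted p below 0.05, beside 12% of all tested genes. Of the 4 members 1 was higher and 3 were lower, where 6.27% of all tested genes were higher and 5.77% lower. At the end of treatment 0 of 9 members passed against control, where 7.07% of all tested genes did (4.13% higher and 2.94% lower). Between off-drug and on-drug aortas 2 of 9 members passed, Ccl7 lower and Cxcl12 higher, beside 12.4% of all tested genes (5.44% higher and 6.92% lower). Both comparisons with control use the same 4 control libraries. Levels below are in CPM, the read count scaled to a common library size, and folds are those of the fitted model.

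Library totals ran from 41524501 to 109423243 counts. The defining smooth muscle markers, among them Acta2 and Myh11, were abundant in every library, with a summed level between 15972 and 20897 CPM over 8 markers. Off-drug libraries stood apart from the others on the first principal component, which held 18.3% of the variance. In whole tissue, fewer cells of a type and less RNA per cell cannot be told apart. Of all tested genes, 1545 were higher and 1422 lower off drug than in control, so that 52.1% of the called genes were higher. With library sizes not corrected for composition the higher share was 68.9%. On drug against control, 1018 genes were higher and 725 lower, a higher share of 58.4%, or 72.8% without that correction.

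Promoter sequence was in the RefSeq table (GRCm38.p6) for 6 of the 9 members, Ccl8, Cxcl1, Cxcl12, Il6, Il1b and Cx3cl1. Ccl2, Ccl7 and Ccl11 had no entry. The 250 bases before the annotated start are printed for 4 of them, 5′ to 3′ on the gene's strand. These are Il1b and Cxcl12, which passed in opposite directions, and Cxcl1 and Il6, which did not pass. The windows of Cxcl1 and Il6 held matches to a motif of the inflammatory transcription factor NF-kB, and those of Il1b and Cxcl12 did not. Whether any member responds to NF-kB was not tested. Capitals mark every match to a searched motif. The Il1b window lies on the minus strand at chr2:129371140-129371389, that of Cxcl12 on the plus strand at chr6:117168285-117168534, that of Cxcl1 on the plus strand at chr5:90890995-90891244, and that of Il6 on the plus strand at chr5:30012864-30013113.
Il1b: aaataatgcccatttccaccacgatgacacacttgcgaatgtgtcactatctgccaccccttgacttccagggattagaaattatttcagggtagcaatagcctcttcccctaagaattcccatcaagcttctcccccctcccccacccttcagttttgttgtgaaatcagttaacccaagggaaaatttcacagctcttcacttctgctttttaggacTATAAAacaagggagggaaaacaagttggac
Cxcl12: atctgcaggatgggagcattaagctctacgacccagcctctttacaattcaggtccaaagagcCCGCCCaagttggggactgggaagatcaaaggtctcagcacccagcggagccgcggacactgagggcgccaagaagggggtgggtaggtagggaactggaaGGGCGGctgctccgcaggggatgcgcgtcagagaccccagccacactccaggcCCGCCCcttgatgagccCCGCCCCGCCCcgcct
Cxcl1: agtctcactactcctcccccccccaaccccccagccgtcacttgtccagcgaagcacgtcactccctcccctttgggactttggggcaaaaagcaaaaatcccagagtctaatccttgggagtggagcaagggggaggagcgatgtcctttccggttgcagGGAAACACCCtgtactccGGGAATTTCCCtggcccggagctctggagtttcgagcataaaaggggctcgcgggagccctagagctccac
Il6: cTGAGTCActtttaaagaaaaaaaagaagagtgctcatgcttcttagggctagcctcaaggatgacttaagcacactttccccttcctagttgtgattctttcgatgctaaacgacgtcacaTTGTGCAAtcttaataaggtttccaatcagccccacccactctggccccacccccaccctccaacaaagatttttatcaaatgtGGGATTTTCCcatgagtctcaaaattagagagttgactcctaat

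The motifs searched were GGGNNNTTCC for NF-kB, TGANTCA for AP-1, TTGCNNAA for C/EBP and GGGCGG for the GC box, each on both strands, and TATAAA for the TATA box on the gene's strand. They were present in 4.65%, 6.75%, 9.56%, 32.7% and 7.59% of 32851 promoter windows of the same length. Cxcl1 held 3 matches to the NF-kB motif. The pair that lies 71 to 61 bases before the start overlaps, because the run reads as the motif on both strands. Il6 held 1 NF-kB match 44 to 35 bases before the start, and also 1 AP-1 and 1 C/EBP match. Cxcl12 held 5 GC-box matches and none of the others. Il1b held a TATA box 31 to 26 bases before the start. Of the windows not printed, that of Ccl8 held a TATA box 32 to 27 bases before the start. That of Cx3cl1 held a GC box 27 to 22 bases before the start, and TATAAA 6 to 1 bases before it, directly at the start. The Cx3cl1 window, chr8:94771930-94772179, ran past the gene start at 94772009 given below, so its start is not the same as that gene start.

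Levels between genes were compared per length, as CPM per kilobase of exon. In control aortas Ccl8 was highest at 8.9 CPM per kb on average, followed by Ccl7 at 6.16, Ccl11 at 5.78, Ccl2 at 3.95, Cxcl12 at 2.41, Cx3cl1 at 1.77, Cxcl1 at 1.66, Il1b at 1.07 and Il6 at 0.0478 CPM per kb. The ranges of neighbours in this order overlapped down to Il1b, and Il6 lay below all others. The place of Ccl8 at the top of the control order rested on 1 library, described below. Ccl8 also averaged highest off drug, at 5.04 CPM per kb, and on drug, at 4.35 CPM per kb. Ccl11 was next in both, at 4.75 and 4.24 CPM per kb. The order also depends on the lengths used. For Cxcl1 the exon length of 1875 bases is 1 interval that spans the whole gene. Cxcl12, at 8176 bases the longest member, was the highest before division by length, at 19.7 CPM in control. Off drug, Ccl7 averaged 0.816 CPM per kb and stood in place 6 of 9, against place 2 in control, and Ccl2 averaged 0.575 CPM per kb in place 7, against place 4 in control.

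**Figure D1:**
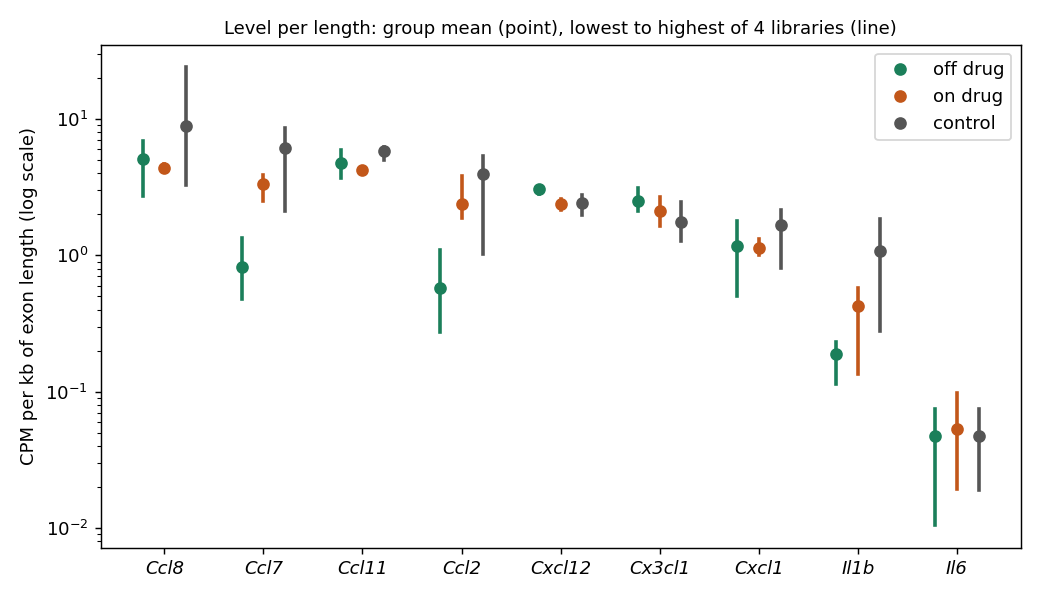
Level of each member in CPM per kilobase of exon length on a log axis, in the order of the control means. Points are group means of off-drug, on-drug and control aortas and lines run from the lowest to the highest of 4 libraries. Ccl7 and Ccl2 lie lower off drug, at 0.816 and 0.575 CPM per kb, than in control, at 6.16 and 3.95 CPM per kb.

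Ccl2 (ENSMUSG00000035385.5, chr11:82035571-82037453, plus strand, GRCm38) encodes the main monocyte-attracting chemokine MCP-1. Its level was 0.708, 1.24, 0.359 and 0.314 CPM in the 4 off-drug libraries, 2.22, 4.33, 2.15 and 2.12 CPM in the on-drug libraries, and 1.17, 5.68, 6.04 and 5.08 CPM in the control libraries. All off-drug values lay below all on-drug values, and 3 of the 4 off-drug values lay below the lowest control, replicate 1. Off drug against control, Ccl2 fell by 2.79 ± 0.60 on the log2 scale (SE, adjusted p = 0.0143, edgeR), a call kept in all 21 alternative settings with adjusted p between 5.27e-05 and 0.0485. Off drug against on drug the difference was -2.06 ± 0.59 (adjusted p = 0.0511), just over the threshold, and 8 of 21 alternatives called it. These included the fits without control replicate 1 (adjusted p = 0.00933) and without off-drug replicate 2 (adjusted p = 0.028). With the drug the difference from control was -0.74 ± 0.54 (adjusted p = 0.486).

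Ccl7 (ENSMUSG00000035373.2, chr11:82045712-82047525, plus strand), the neighbouring gene of Ccl2, encodes MCP-3, another attractant of monocytes. Off-drug libraries had 0.508, 1.07, 0.384 and 0.648 CPM, on-drug libraries 2.0, 2.86, 3.11 and 2.64 CPM, and control libraries 1.68, 6.84, 4.84 and 6.38 CPM. Every off-drug library was below every library of the other groups, while on-drug and control libraries overlapped through control replicate 1. Off drug, Ccl7 fell by 2.90 ± 0.43 against control (SE, adjusted p = 0.00135, edgeR) and fell by 2.00 ± 0.43 against on drug (adjusted p = 0.0105), a 3.99-fold difference. Both calls were kept in all 21 alternatives, with highest adjusted p of 0.0111 and 0.0407. The difference between on-drug and control libraries was -0.91 ± 0.39 and did not pass (adjusted p = 0.197), although it did without control replicate 1 (adjusted p = 0.00822). The CPM ratio of Ccl7 to Ccl2 ranged from 0.661 to 2.06 over the 12 libraries.

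Il1b (ENSMUSG00000027398.13, chr2:129364570-129371139, minus strand) encodes interleukin-1 beta, made as a precursor mainly by monocytes and macrophages. Its 25 exonic bases shared with the antisense gene Il1bos cannot be told apart without strand, but Il1bos averaged 0.0632 CPM. Il1b was at 0.363, 0.425, 0.218 and 0.438 CPM off drug, 0.845, 0.255, 1.1 and 1.03 CPM on drug, and 0.528, 1.19, 2.92 and 3.51 CPM in control. The off-drug and control libraries did not overlap, and on-drug replicate 2 lay within the off-drug range. Il1b fell by 2.48 ± 0.58 off drug against control (SE, adjusted p = 0.0167, edgeR). That call was lost without off-drug replicate 1 (adjusted p = 0.0576), without off-drug replicate 3 (adjusted p = 0.0588) and with no filter on low counts (adjusted p = 0.0542), and it was kept in the other 18 of 21 alternatives. The difference on drug against control was -1.33 ± 0.55 (adjusted p = 0.173, or 0.0287 without control replicate 1), and off drug against on drug it was -1.15 ± 0.59 (adjusted p = 0.25).

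Cxcl12 (ENSMUSG00000061353.11, chr6:117168535-117181367, plus strand) encodes SDF-1, a chemokine that stromal cells make without inflammation and that retains leukocytes and progenitor cells. It reached 26.3, 23.1, 24.4 and 26.0 CPM off drug, against 20.4, 18.7, 21.1 and 17.6 CPM on drug and 22.2, 22.7, 17.6 and 16.3 CPM in control. The lowest off-drug library exceeded the highest control by a small margin, and the on-drug libraries lay within the control range. Cxcl12 rose by 0.34 ± 0.10 on the log2 scale off drug against control (SE, adjusted p = 0.03, edgeR) and by 0.36 ± 0.10 against on drug (adjusted p = 0.0216), a 1.28-fold difference. On-drug and control libraries differed by -0.02 ± 0.10 (adjusted p = 0.944). The call against control was lost in 5 of 12 fits that left out 1 library: control replicate 3 (adjusted p = 0.0949), control replicate 4 (0.0889), off-drug replicate 1 (0.0839), off-drug replicate 3 (0.0513) and off-drug replicate 4 (0.0694). The call against on drug was lost without on-drug replicate 2 (adjusted p = 0.0557), on-drug replicate 4 (0.0747) or off-drug replicate 1 (0.0555).

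**Figure D2:**
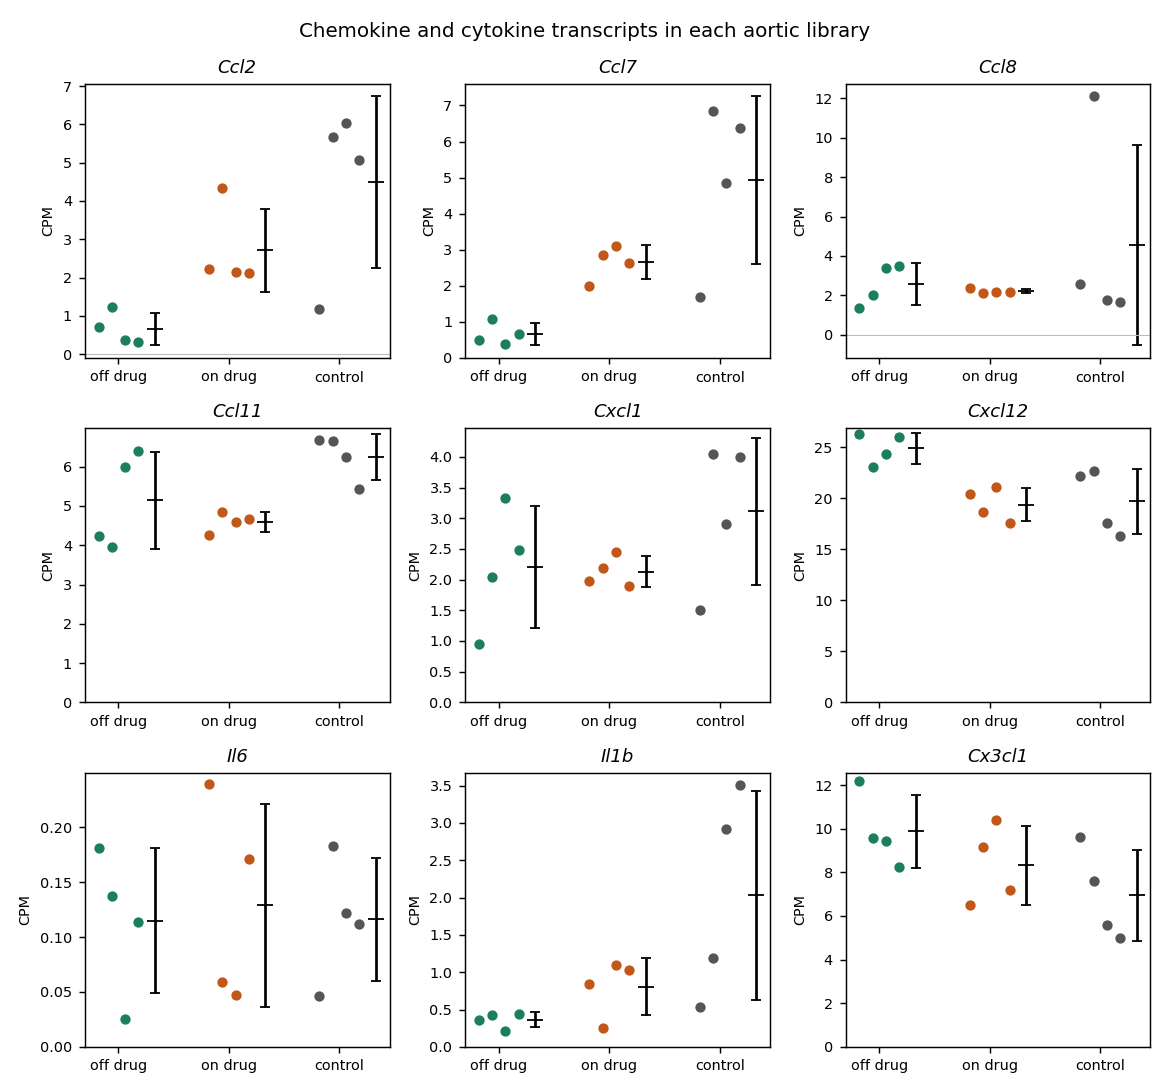
CPM of each member in each of the 12 libraries, with off-drug, on-drug and control aortas from left to right. Points are libraries, and the black bar beside them is the group mean with 1 SD (n = 4). Ccl7 and Il1b off drug lie below every control, Cxcl12 off drug lies above every control, and control replicate 2 stands alone for Ccl8 at 12.1 CPM.

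Ccl8 (ENSMUSG00000009185.2, chr11:82115185-82116799, plus strand) encodes MCP-2, a further chemokine of the same cluster. It had 1.38, 2.0, 3.41 and 3.51 CPM off drug, 2.4, 2.12, 2.2 and 2.19 CPM on drug, and 2.58, 12.1, 1.78 and 1.68 CPM in control. Control replicate 2 was far above the other 11 libraries, whose values overlapped. The log2 differences were -0.81 ± 0.64 off drug against control (adjusted p = 0.483) and -1.03 ± 0.65 on drug against control (adjusted p = 0.403). Without control replicate 2 both turned direction, to 0.36 and 0.14, so Ccl8 had no direction that held over the libraries. Off drug against on drug the difference was 0.22 ± 0.65 (adjusted p = 0.884).

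Ccl11 (ENSMUSG00000020676.2, chr11:82057823-82062955, plus strand) encodes eotaxin-1. Off-drug libraries had 4.23, 3.96, 5.99 and 6.39 CPM, on-drug libraries 4.25, 4.84, 4.6 and 4.67 CPM, and control libraries 6.68, 6.65, 6.25 and 5.43 CPM. Every on-drug value was below every control value, while 2 off-drug libraries lay close to the on-drug ones and 2 among the controls. The difference on drug against control was -0.45 ± 0.14 and missed the threshold (adjusted p = 0.0682). It was called in 3 of 21 alternatives, with no filter on low counts (adjusted p = 0.031), in DESeq2 (0.026) and with those groups fitted alone (0.0367). Off drug the differences were -0.28 ± 0.14 against control (adjusted p = 0.233) and 0.17 ± 0.14 against on drug (adjusted p = 0.518).

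Cxcl1 (ENSMUSG00000029380.11, chr5:90891241-90893115, plus strand), which encodes the neutrophil attractant KC, had 0.944, 2.05, 3.33 and 2.48 CPM off drug, 1.98, 2.19, 2.45 and 1.9 CPM on drug, and 1.51, 4.04, 2.9 and 4.0 CPM in control. The 3 groups overlapped, and the on-drug libraries were the most alike, with a coefficient of variation of 11.6%, against 45.1% off drug and 38.3% in control. Its log2 differences were -0.49 ± 0.34 off drug (adjusted p = 0.411) and -0.55 ± 0.35 on drug (adjusted p = 0.386) against control.

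Cx3cl1 (ENSMUSG00000031778.13, chr8:94772009-94782427, plus strand) encodes fractalkine. It had 12.2, 9.58, 9.44 and 8.26 CPM off drug, 6.49, 9.17, 10.4 and 7.2 CPM on drug, and 9.61, 7.6, 5.57 and 5.01 CPM in control. Off-drug values were in the upper part of the range, but control replicate 1 lay among them. The difference off drug against control was 0.50 ± 0.21 (adjusted p = 0.147), and it was called once control replicate 1 was left out (adjusted p = 0.023). For on drug against control it was 0.25 ± 0.21 (adjusted p = 0.542), and for off drug over on drug also 0.25 ± 0.21 (adjusted p = 0.517).

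Il6 (ENSMUSG00000025746.11, chr5:30013114-30019981, plus strand), which encodes interleukin-6, was close to the limit of what these libraries can show. It had 10, 11, 2 and 12 reads in the off-drug libraries, 26, 3, 2 and 13 in the on-drug libraries, and 3, 12, 7 and 8 in the control libraries. The groups averaged 0.115 ± 0.0656, 0.129 ± 0.0923 and 0.116 ± 0.0559 CPM (SD, n = 4 each) in off-drug, on-drug and control aortas, and overlapped throughout. A difference was not detectable at this depth, with log2 differences of -0.04 ± 0.65 off drug and 0.25 ± 0.64 on drug against control.

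**Figure D3:**
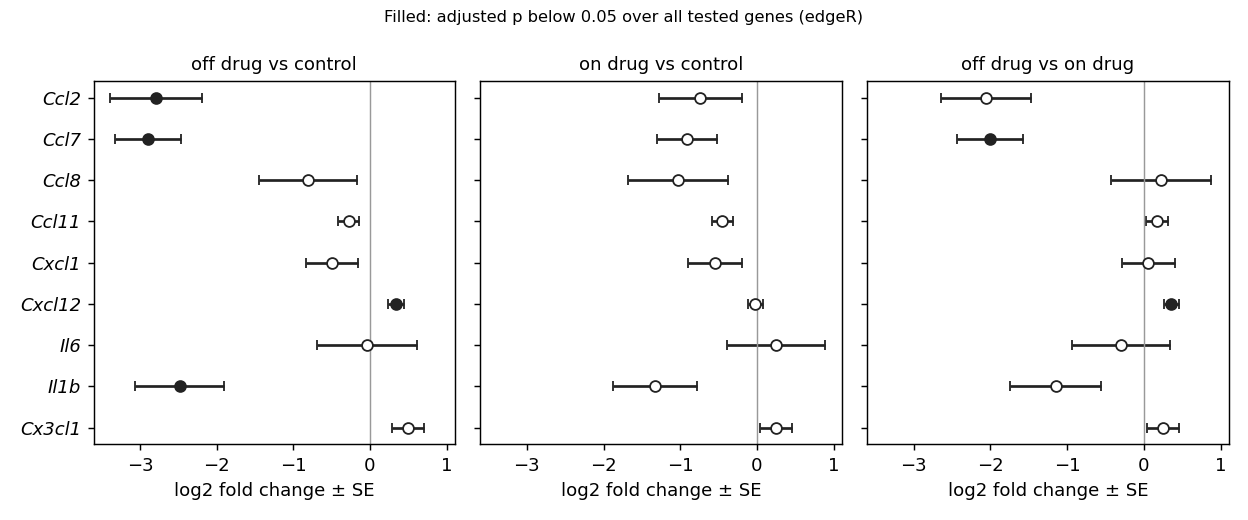
Log2 fold change of each member against control, off drug on the left and on drug in the middle, and for off drug over on drug on the right, with bars of 1 SE. Filled points passed an adjusted p of 0.05 over all tested genes in edgeR. Ccl2, Ccl7, Cxcl12 and Il1b are filled in the first panel, none in the second, and Ccl7 and Cxcl12 in the third.

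Over all 9 members the median log2 difference off drug against control was -0.49, beside -0.01 over all tested genes, with 7 members negative. Off-drug and control libraries did not overlap for 3 members, Ccl7, Il1b and Cxcl12, and for 16.9% of all tested genes. On drug against control the median was -0.55, beside 0.00 over all genes, and again 7 members were negative. There 0 of 9 members were called by edgeR's quasi-likelihood test, and 3 of the 9 had an unadjusted p under 0.05, namely Ccl7, Ccl11 and Il1b. DESeq2 called 1, Ccl11, and limma-voom called 0. The groups did not overlap for Ccl11 alone, and for 12.3% of all tested genes. Off drug against on drug the median was 0.06, beside 0.00 over all genes, and 3 members, Ccl2, Ccl7 and Cxcl12, did not overlap, beside 18.8% of all tested genes.

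Some members moved together across single libraries and others did not. Over the 12 libraries, which share group differences, the Pearson r of log2 CPM between members ran from -0.79 for Il1b and Cx3cl1 to 0.95 for Ccl2 and Ccl7. It was 0.79 between Ccl7 and Il1b and -0.78 between Ccl2 and Cxcl12, but 0.06 between Ccl2 and Ccl8, 0.01 between Ccl2 and Ccl11 and -0.05 between Ccl8 and Il1b. Control replicate 1 was the lowest control for Ccl2, Ccl7, Cxcl1, Il6 and Il1b and the highest for Ccl11 and Cx3cl1. Control replicate 2 was the highest control for Ccl7, Ccl8, Cxcl1, Cxcl12 and Il6. The genes most like each member in this measure were picked from 12373 genes outside the members. Their r is the highest of many over few libraries, so it is a description and no test. They were Ccdc68 (r = 0.945) and Zfp9 (0.941) for Ccl2, Ereg (0.97) and Golt1b (0.958) for Ccl7, and Bnip3l (0.913) and Apex2 (0.906) for Il1b. For Cxcl12 they were Cd82 (0.955) and Angpt2 (0.953), and for Cx3cl1 Emilin1 (0.971) and Zfp827 (0.955). For Ccl8 they were H2-Aa (0.866) and H2-Eb1 (0.856), chains of the antigen-presenting MHC class II complex. The remaining members gave Nck2 (0.887) for Ccl11, Hemk1 (0.892) and Ptp4a1 (0.853) for Cxcl1, and Rbm48 (0.836) and Raph1 (0.781) for Il6. For Rbm48 and Il6, which had few reads, the Spearman rank correlation was 0.545.

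Ccl2, Ccl7, Ccl11 and Ccl8 lie in 1 cluster on chromosome 11 in that order, all on the plus strand, with the starts of Ccl7, Ccl11 and Ccl8 10.1, 22.3 and 79.6 kb beyond that of Ccl2. Ccl12, a further monocyte attractant of the cluster that starts 66.3 kb beyond Ccl2 and was chosen after its values were seen, averaged 1.23 ± 0.428, 1.68 ± 0.777 and 3.49 ± 2.45 CPM in off-drug, on-drug and control aortas (SD, n = 4 each). Its difference off drug against control was -1.50 ± 0.51 and did not pass in edgeR's quasi-likelihood test (adjusted p = 0.0904). It was called in 3 of 21 alternatives, in DESeq2 (adjusted p = 0.0363), in the non-robust fit (0.0353) and without control replicate 3 (0.0374). Whether Ccl2 and Ccl7 differed from Ccl11 and Ccl8 was tested on 4 log2 ratios, chosen after the values were seen. The off-drug minus control difference was -2.37 for Ccl2 to Ccl8, -2.44 for Ccl2 to Ccl11, -2.46 for Ccl7 to Ccl8 and -2.53 for Ccl7 to Ccl11. In exact two-sided permutation tests, which cannot go below p = 0.0286 with 4 libraries against 4, p was 0.171, 0.0571, 0.0286 and 0.0571 in that order. Adjusted over the 4 ratios by Benjamini-Hochberg, p was 0.171 for Ccl2 to Ccl8 and 0.0761 for the others in these exact permutation tests, so none passed.

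**Figure D4:**
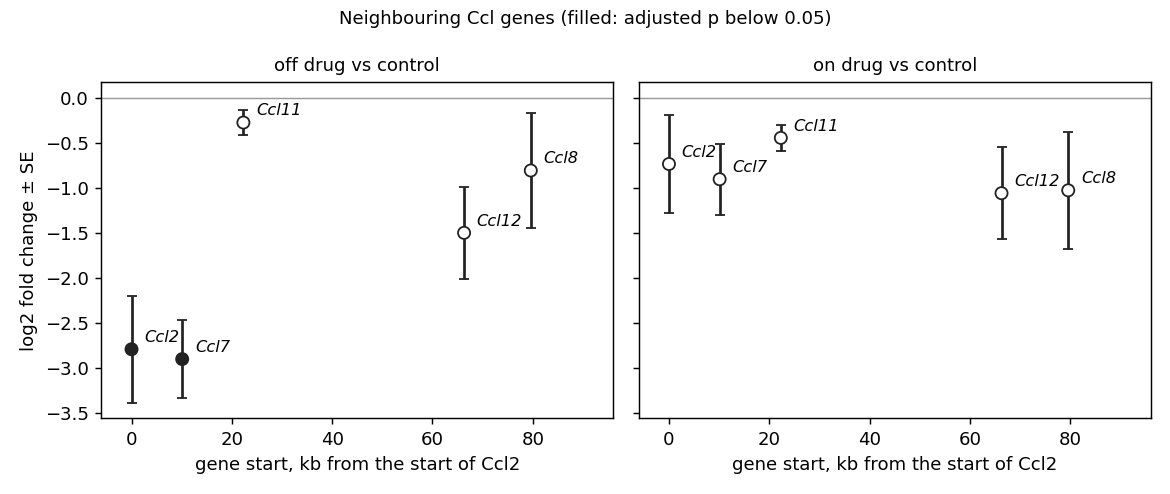
Log2 fold change, with bars of 1 SE, of the tested genes of the Ccl cluster against the distance of each start from the start of Ccl2 in kb, off drug against control on the left and on drug against control on the right. Filled points passed an adjusted p of 0.05. Ccl2 and Ccl7 are filled off drug at -2.79 and -2.90, and no gene is filled on drug.

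Of 13 receptor genes for these ligands 10 were tested, and off drug 3 were lower than in control and 0 higher. The median log2 difference of the 10 was -0.32, and 2 or 3 were lower when any 1 library was left out. Beside this and each list below, 5.77% of all tested genes were lower and 6.27% higher in that comparison. For on drug against control these shares were 2.94% and 4.13%, and for off drug against on drug 6.92% and 5.44%. Cx3cr1, the fractalkine receptor of monocytes and macrophages, averaged 1.03 ± 0.152, 2.97 ± 1.1 and 3.47 ± 1.48 CPM in off-drug, on-drug and control aortas (SD, n = 4 each) and fell by 1.77 ± 0.33 off drug against control (SE, adjusted p = 0.00352, edgeR). Ccr1, a receptor of several CC chemokines, was at -1.41 ± 0.38 (adjusted p = 0.0367), a call lost without control replicate 2, 3 or 4, on-drug replicate 1 or 3, or off-drug replicate 1, 2 or 4, with adjusted p between 0.052 and 0.108 in those fits. On drug against control 0 of the 10 receptors passed in edgeR's quasi-likelihood test (6 had an unadjusted p under 0.05, and DESeq2 called 3 and limma-voom 0). Off drug against on drug 5 were lower and 1 higher. The higher one, Il1rap, a subunit of the IL-1 receptor named after its values were seen, was at 0.30 ± 0.08 (adjusted p = 0.0266), a call lost without on-drug replicate 1 or 2 or off-drug replicate 1, 2 or 4, with adjusted p between 0.0522 and 0.0742 in those fits. Cx3cr1 fell by 1.53 ± 0.33 (adjusted p = 0.00758), and Il6ra, the IL-6 receptor, fell by 0.56 ± 0.11 (adjusted p = 0.00194). Ccr2, the receptor of Ccl2 and Ccl7, was named after its values were seen. It averaged 5.76 ± 1.38, 16.3 ± 7.14 and 7.8 ± 2.79 CPM in off-drug, on-drug and control aortas, with a difference of -1.50 ± 0.38 off drug against on drug (adjusted p = 0.0306). That call was lost without on-drug replicate 1, 2 or 3 and without any of the off-drug libraries, with adjusted p between 0.057 and 0.0912 in those fits. Ccr3 and Ccr8, the main receptors of Ccl11 and of mouse Ccl8, averaged below 0.1 CPM and were not tested.

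Among 6 decoy receptors, scavengers and antagonists of these ligands, 1 was lower off drug than in control, or 0 to 2 with 1 library left out, and 2 were lower off drug than on drug. Ackr3, which removes Cxcl12, averaged 18.4 ± 0.389, 31.6 ± 5.28 and 22.9 ± 2.92 CPM in off-drug, on-drug and control aortas (SD, n = 4 each). It fell by 0.78 ± 0.11 off drug against on drug (SE, adjusted p = 0.000106, edgeR), and on drug against control it rose by 0.46 ± 0.11 (adjusted p = 0.0155), which was lost without control replicate 2 (0.0544), on-drug replicate 2 (0.0593) or on-drug replicate 3 (0.0658). Ackr2, which removes inflammatory CC chemokines, fell by 0.87 ± 0.14 off drug against on drug (adjusted p = 0.000478). It also fell by 0.55 ± 0.14 off drug against control (adjusted p = 0.0184), a call lost without off-drug replicate 1 (0.0638) or off-drug replicate 3 (0.0527).

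Of 13 other CC and XC chemokines tested, 3 were lower off drug than in control and 0 higher, and the median was -0.31. Leaving out 1 library gave 1 to 4 lower, with only 1 without control replicate 4 or any 1 of the off-drug libraries. Ccl9, a macrophage-derived chemokine that acts through Ccr1, averaged 16.9 ± 2.66, 61.5 ± 10.4 and 39.5 ± 12.3 CPM in off-drug, on-drug and control aortas (SD, n = 4 each). It fell by 1.23 ± 0.23 off drug against control (SE, adjusted p = 0.00693, edgeR) and fell by 1.86 ± 0.23 against on drug (adjusted p = 0.000534). Ccl6, another Ccr1 ligand, fell by 1.74 ± 0.30 against on drug (adjusted p = 0.00459). Of 9 other CXC chemokines 1 was lower off drug than in control, beside 5.77% of all tested genes. It was Cxcl2, which draws neutrophils and had few reads, at 0.117 CPM off drug and 0.412 CPM in control. Its difference was -1.77 ± 0.55 (adjusted p = 0.0423). That call was lost without control replicate 3 or 4, on-drug replicate 2, 3 or 4, or off-drug replicate 1, 2 or 4, with adjusted p between 0.0504 and 0.167 in those fits. Off drug against on drug 1 was higher, Cxcl5, which also acts through Cxcr2, at 2.95 ± 0.67 (adjusted p = 0.00709). Cxcl5 averaged 0.608 ± 0.352, 0.0794 ± 0.0697 and 0.377 ± 0.221 CPM in off-drug, on-drug and control aortas, so few reads lay behind this difference. Against control the off-drug difference of Cxcl5 was 0.70 ± 0.56 and did not pass (adjusted p = 0.481). Of 17 other cytokines of inflammation, 3 were lower and 1 higher off drug than in control, with only 1 lower without control replicate 3 or 4. Oncostatin M (Osm), a relative of IL-6 made by myeloid cells, averaged 0.146 ± 0.0606, 0.61 ± 0.32 and 0.833 ± 0.266 CPM in the same order and fell by 2.53 ± 0.44 against control (adjusted p = 0.000845). Few reads lay behind the off-drug level of Osm. Mif, which encodes macrophage migration inhibitory factor, rose by 0.37 ± 0.08 (adjusted p = 0.00367).

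Genes that process these ligands or respond to them were counted likewise. Of 10 processing and cleavage enzymes, 3 were lower and 0 higher off drug than in control, and 3 or 4 were lower with any 1 library left out. Nlrp3, the sensor of the inflammasome that matures IL-1 beta, averaged 0.165 ± 0.0589, 0.599 ± 0.114 and 0.687 ± 0.333 CPM in off-drug, on-drug and control aortas (SD, n = 4 each) and fell by 2.04 ± 0.38 (SE, adjusted p = 0.0017, edgeR). Its off-drug level also rested on few reads. Adam17, which sheds Cx3cl1 from the membrane, fell by 0.31 ± 0.06 (adjusted p = 0.00131). Of 19 NF-kB subunits and responsive genes, 2 were lower and 2 higher, with a median of -0.05 beside -0.01 for all tested genes. With 1 library left out, 1 to 3 were lower and 1 to 3 higher. Nfkbiz, which encodes an inducible partner of NF-kB, fell by 1.09 ± 0.20 (adjusted p = 0.00568), and Ptgs2, which encodes cyclooxygenase-2, rose by 1.00 ± 0.21 (adjusted p = 0.0111). Of 12 IL-6 and STAT3 responsive genes, 6 were lower and 0 higher, and all 12 differences were negative with a median of -0.67. With any 1 library left out, 5 to 7 were lower. Socs3, the feedback inhibitor of STAT3 signalling, averaged 6.51 ± 0.433, 16.4 ± 4.45 and 14.7 ± 2.41 CPM and fell by 1.18 ± 0.16 against control (adjusted p = 0.000358), while Il6 itself had the few reads given above. Of 10 regulators of cytokine mRNA decay 1 was lower, beside 5.77% of all tested genes. That gene, Zfp36, which encodes tristetraprolin, fell by 1.09 ± 0.15 (adjusted p = 0.000584).

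Markers of cells that make or follow these ligands were summed in each library. The 14 monocyte and macrophage markers summed to 626 to 747 CPM off drug, 778 to 965 CPM on drug and 711 to 922 CPM in control, and off drug 2 of 14 were lower than in control, Adgre1 and Itgam, with 1 to 4 lower when 1 library was left out. On drug against control 3 of the 14 were higher and 0 lower, or 1 to 2 higher when any 1 library was left out. Itgam, an integrin of myeloid cells, rose by 0.57 ± 0.12 there (SE, adjusted p = 0.00666, edgeR) and kept its call in all 21 alternatives. Csf1r, the receptor of a macrophage growth factor, was at 0.23 ± 0.07 (adjusted p = 0.0403) and the scavenger receptor Cd163 at 0.46 ± 0.13 (adjusted p = 0.0495), and each lost its call in 10 of 12 fits with 1 library left out, with adjusted p up to 0.151 and 0.145. Csf1r kept its call only without on-drug replicate 4 or off-drug replicate 4, and Cd163 only without control replicate 1 or 2. Off drug against on drug 7 of the 14 were lower and 0 higher. The 10 neutrophil markers summed to 3.63 to 11.6 CPM off drug, 4.09 to 13 CPM on drug and 11.4 to 34.2 CPM in control. Of the 9 tested, 0 passed off drug against control in edgeR's quasi-likelihood test, 4 had an unadjusted p under 0.05, and DESeq2 called 3 and limma-voom 3. Without on-drug replicate 4 or off-drug replicate 2 edgeR called up to 5 of them lower. The 8 eosinophil and mast cell markers summed to 7.36 to 19.6 CPM off drug, 16.9 to 27.9 CPM on drug and 9.03 to 14.7 CPM in control, with the eosinophil markers Siglecf, Epx and Prg2 each averaging below 0.1 CPM. On drug against control 2 of the 5 tested were higher, the mast cell proteases Cpa3 at 0.94 ± 0.25 (adjusted p = 0.0368) and Mcpt4 at 1.03 ± 0.27 (adjusted p = 0.0358). Both calls were lost without control replicate 2, 3 or 4 or on-drug replicate 3 or 4, and that of Cpa3 also without on-drug replicate 1, with adjusted p up to 0.111. No marker was at 0 in all libraries. The 5 erythroid markers summed to 2037 to 4799 CPM off drug, 3876 to 5997 CPM on drug and 4922 to 20556 CPM in control, and all 5 were lower off drug than in control, although 0 to 5 were called when 1 library was left out. The part of these cells in the differences of Ccl2, Ccl7 and Il1b was not tested.

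The 12 immediate-early genes, which respond within minutes to stimulation and to handling of tissue, had a lower summed level off drug. They summed to 558 to 680 CPM off drug, 850 to 1597 CPM on drug and 1282 to 1637 CPM in control. Off drug 7 of 12 were lower than in control and 0 higher, among them Egr1, which fell by 2.74 ± 0.22 on the log2 scale (SE, adjusted p = 5.2e-05, edgeR). Of the 12 differences there, 10 were negative and 2 positive. On drug against control 1 immediate-early gene was higher and 1 lower. Of 11 core clock genes 6 were higher and 4 lower off drug than in control, among them Cry1 at 2.15 ± 0.14 (adjusted p = 7.97e-08) and Clock at -1.10 ± 0.08 (adjusted p = 8.31e-08). Clock genes also differed on drug against control, 4 higher and 2 lower, and off drug against on drug, 4 higher and 4 lower. The hour of collection is not in the labels used here. Its part in the chemokine differences was not tested, and neither was that of the immediate-early genes.

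**Figure D5:**
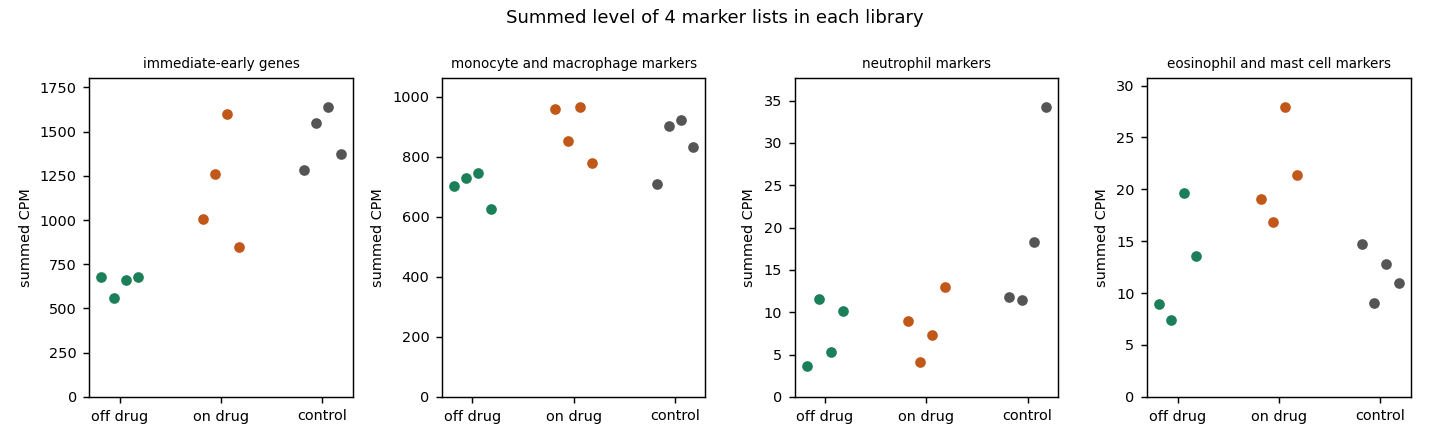
Summed CPM of 4 gene lists in each library, with off-drug, on-drug and control aortas from left to right in each panel. The immediate-early genes lie between 558 and 680 CPM off drug, below every library of the other groups, and the neutrophil markers reach 34.2 CPM in 1 control library.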

How the data were processed

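RNA was sequenced from 12 aortic samples, 4 per group, and per the labels' protocols the tissue was frozen until all samples could be extracted together. The authors deposited a count of reads for each gene in whole numbers. Per the file headers, featureCounts 1.4.6-p3 assigned reads to GENCODE mouse M13 without strand and counted multi-mapping reads at each place. STAR, featureCounts, DESeq2 and GRCm38 are named in the submitters' processing notes, and the alignment index was built with STAR 2.5.3a, per the file headers. The authors' deposited table of log2 values equalled log2(count / size factor + 1) within 5e-09 and served for symbols and coordinates.

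Counts were tested in R 4.3.3 with edgeR 4.0.16 (filterByExpr with minimum count 10 and minimum total 15, TMM, robust glmQLFit, two-sided glmQLFTest) in 1 model of 3 groups and 12 libraries. Of 50600 genes 24660 were tested, with Benjamini-Hochberg adjustment over all of them and a threshold of 0.05. CPM is the count divided by the TMM-scaled library size, errors of CPM are SDs over 4 libraries and errors of log2 differences are SEs. The steps were tested on simulated data. Library totals of 41524501 to 109423243 counts left counting error small except for genes with few reads. Among the members these were Il6 and, off drug, Il1b with 17 to 46 reads per library, Ccl2 with 28 to 99 and Ccl7 with 28 to 86. The p-values set a group difference against the spread between these samples. The labels do not say that the samples of a group were independent in every respect, and the p-values hold only if they were.

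The members and the gene lists were chosen with earlier results of these data known. Of each list, up to 3 called genes per comparison were named by smallest adjusted p, and genes outside this rule are marked. For 2 genes that the rules here would name, values are not reported here; list counts and medians still hold them where they belong to a list. Likeness was the Pearson r of log2 CPM over 12 libraries among tested genes whose log2 CPM averaged 1 or more, leaving out unnamed models. For a symbol with more than 1 gene ID, the ID with the most reads was used. Alternatives were DESeq2 size factors in edgeR, library sizes without composition factors, no filter, a filter of 1 CPM in at least 4 libraries, DESeq2 1.42.0, limma-voom 3.58.1 with sample weights, a non-robust fit, a fit of the compared groups alone, a replicate block and each of the 12 libraries left out. Levels per kilobase used the deposited exon lengths. Promoter windows came from RefSeq, GRCm38.p6.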

Additional observations from a re-analysis of the deposited data

Results flagged for a closer look

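In 27 sets of 4 libraries (9 members in 3 groups), 2 held a library far from the other 3 by Dixon's gap test, which chance gives in about 1 of 20 sets. Ccl8 stood at 12.1 CPM in control replicate 2, against 1.68 to 2.58 CPM in the other controls. Ccl2 stood at 4.33 CPM in on-drug replicate 2, against 2.12 to 2.22 CPM in the other on-drug libraries.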

How the results depend on the processing

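Among single genes, 8 differences changed sign under at least 1 alternative, in 17 fits of a difference in all, and none of them was called with or without the change. Leaving out 1 library moved Cxcl12 on drug against control between -0.10 (control replicate 4) and 0.047 (control replicate 2), Il6 on drug between -0.245 (on-drug replicate 1) and 0.54 (control replicate 2), and Il6 off drug against control between -0.31 (off-drug replicate 1) and 0.29 (off-drug replicate 3). It moved Il6 off drug against on drug between -0.55 (off-drug replicate 1) and 0.20 (on-drug replicate 1), and Cxcl1 between -0.20 (off-drug replicate 3) and 0.30 (off-drug replicate 1). Ccl8 against control ranged from -1.08 to 0.36 off drug and from -1.30 to 0.14 on drug, in each case with control replicate 4 left out at the low end and control replicate 2 at the high end. Il1rap off drug against control ranged from -0.021 (control replicate 4) to 0.070 (control replicate 3). Without composition factors Cxcl12 on drug was 0.012 and Il6 off drug was 0.018, and in limma-voom Il6 on drug was -0.089. The cause was not tested.

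Members called lower on drug against control numbered 1 with no filter, in DESeq2 and with the compared groups alone, and 0 to 2 with 1 library left out. Members called lower off drug against on drug numbered 2 with the stricter filter, DESeq2, limma-voom, the compared groups alone and the non-robust fit, and 1 to 2 with 1 library left out. Members called higher with 1 library left out numbered 0 to 2 off drug against control and 0 to 1 off drug against on drug. Of all genes, those lower on drug against control numbered 388 without composition factors, 1324 in DESeq2 and 463 with the compared groups alone, and 323 to 960 with 1 library left out, while those higher numbered 472 to 1330. Those lower off drug against control numbered 844 without composition factors, and those higher 1003 to 1926 with 1 library left out. The cause was not tested.

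Equal replicate numbers showed no pairing over all genes. Deviations of same-numbered libraries correlated between -0.08 and 0.067, and those of differently numbered libraries between -0.106 and 0.113. Such correlations over all genes cannot show a shared litter or day that touches few genes. With the replicate block, members called lower off drug against on drug numbered 2, Ccl2 joining at an adjusted p of 0.0408, and Cxcl1 in that comparison was at -0.076. Off drug against control the members called stayed at 3 lower and 1 higher. TPM gave the same order of members as CPM per kb. Within a library this follows from their shared counts and lengths, so it is no separate check. Between libraries, TPM and CPM are scaled differently, and 2 separations seen in CPM did not hold in TPM. Ccl11 was at 3.4 to 5.27 TPM on drug and 3.18 to 5.97 TPM in control, so these groups overlapped. Cxcl12 was at 3.2 TPM in on-drug replicate 3 and 2.76 TPM in off-drug replicate 3, so off-drug and on-drug libraries overlapped. Depth limited Il6 most among the members, with 2 to 26 reads per library.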

Other observations

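Other cells of the wall that can make these ligands were followed through their marker lists. Beside each count of this section, 5.77% of all tested genes were lower and 6.27% higher off drug than in control. Of 8 endothelial markers 2 were lower off drug than in control and 0 higher. Tek, the angiopoietin receptor, averaged 67.9 ± 9.58, 89.6 ± 1.34 and 88.3 ± 5.02 CPM in off-drug, on-drug and control aortas (SD, n = 4 each) and fell by 0.38 ± 0.08 against control (adjusted p = 0.00421, edgeR). Egfl7, which encodes a protein secreted by endothelial cells, fell by 0.37 ± 0.09 (adjusted p = 0.014). Of 8 fibroblast markers 1 was lower, Cd34, and it fell by 0.40 ± 0.07 (adjusted p = 0.000643). Of 8 smooth muscle markers 3 were higher, among them Smtn, which encodes smoothelin and rose by 0.55 ± 0.09 (adjusted p = 0.000743), and Myh11, the smooth muscle myosin heavy chain, which rose by 0.28 ± 0.07 (adjusted p = 0.0103).

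The 10 T and B lymphocyte markers all lay above control off drug, with a median of 0.83, but 0 passed in edgeR, DESeq2 or limma-voom and 0 had an unadjusted p under 0.05. The 7 adipocyte markers also gave 0 calls in these tools and 0 unadjusted p under 0.05. Of 5 skeletal muscle markers 1 was higher, Ckm, which encodes muscle creatine kinase and rose by 0.85 ± 0.15 (adjusted p = 0.00101). Of 8 glucocorticoid responsive genes 2 were lower than in control. Dusp1, a phosphatase that ends stress kinase signalling, with 242 ± 19.8, 369 ± 48.7 and 390 ± 58.8 CPM in off-drug, on-drug and control aortas, fell by 0.69 ± 0.11 (adjusted p = 0.000846). The part of these genes in the chemokine differences was not tested.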
